A study of Mus musculus with 24 samples.

Results

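The proteasome is the protease that breaks down most regulated and damaged proteins of a cell, and its subunit genes were read here in the RNA of extracellular vesicles from mouse plasma. The genes were chosen by name: every row of the count table whose symbol begins with Psm, a letter from a to g and a digit, which gave 50 of 21960 genes. The study asked whether RNA of circulating vesicles, small membrane sacs shed by cells, marks early liver fibrosis caused by blocked bile flow. The bile duct of male C57BL/6J mice, an inbred wild-type strain, was ligated, or the mice had sham surgery, and blood was taken at day 8 or day 15. The groups were ligated mice at day 15, ligated mice at day 8, sham mice at day 15 and sham mice at day 8, with 6 mice and 6 libraries each. The labels name no transgene, deleted gene or drug and give no age. The tissue label reads liver and the site label extracellular vesicles while the protocol describes plasma; the levels are taken here to be those of vesicles.

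The core particle is a barrel of stacked rings of alpha subunits, which form the gate, and beta subunits, of which a few cut proteins. A regulatory particle caps the barrel: its ATPase subunits (Psmc genes) unfold the protein and thread it in, and its non-ATPase subunits (Psmd genes) recognise ubiquitin, the tag that marks a protein for destruction, and remove it. In immune cells and under interferon the catalytic subunits Psmb5, Psmb6 and Psmb7 are replaced by Psmb8, Psmb9 and Psmb10, the immunoproteasome, which favours peptides presented on MHC class I. Activators (Psme genes) open the barrel without ubiquitin.

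Total counts ran from 315404 to 465744 in ligated and from 157133 to 351201 in sham libraries at day 15, and from 167939 to 937963 in ligated and from 101733 to 824640 in sham libraries at day 8. The day 8 libraries numbered 1 to 3 held 101733 to 349386 counts and those numbered 4 to 6 held 535737 to 937963, in both treatments, a split that the labels do not name as a batch. The row of Lars2 took 31.6% to 52.7% of the counts of a library. The 50 proteasome genes held 201 to 1757 counts per library, which is 0.192% ± 0.0209 of all counts (SD, n = 24), and 42 to 50 of them had a count. Of the 50 genes, 38 passed the filter on low counts and were tested, among 4112 genes in all. The other 12 are described by their levels alone. In vesicle RNA, fewer vesicles of a cell type and less RNA per vesicle cannot be told apart.

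Proteasome transcripts were present in every library, and the activator gene Psme1 had the highest level for its length. Levels are given as CPM, counts scaled to a common library size (edgeR's CPM with TMM factors), and compared between genes only after division by transcript length in kilobases. Psme1 averaged 145 ± 42.0 CPM per kilobase (SD, n = 24), its partner Psme2 73.2 ± 22.3 and the immunoproteasome gene Psmb8 68.4 ± 20.4. These 3 ranked above every constitutive core subunit, of which Psmb3 was highest at 60.2 ± 18.5 CPM per kilobase. The SDs of Psme2, Psmb8 and Psmb3 overlap, so their order is not separated from the spread between libraries. Constitutive core subunits with a test lay between 19.7 (Psma2) and 60.2 CPM per kilobase, ATPases between 15.3 (Psmc6) and 34.5 (Psmc3), and tested non-ATPases between 12.2 (Psmd12) and 50.8 (Psmd4). At the bottom stood Psmb11, the catalytic subunit of thymus epithelium, with 4 counts in 3 of 24 libraries, and Psma8, the alpha subunit of the testis, with 5 counts in 4 libraries. The rank order of the 38 tested genes per kilobase was close between ligated and sham means, with Spearman's rho of 0.921 at day 15 and 0.913 at day 8, a description across genes that share libraries and transcript lengths. Spread between mice beyond counting error, edgeR's biological coefficient of variation, had a median of 0.186 over the 38 genes, from 0.0655 for Psmc1 to 0.319 for Psme4, and of 0.239 over 3489 other genes in the same range of mean CPM. Whether that difference is particular to the proteasome was not tested.

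**Figure D1:**
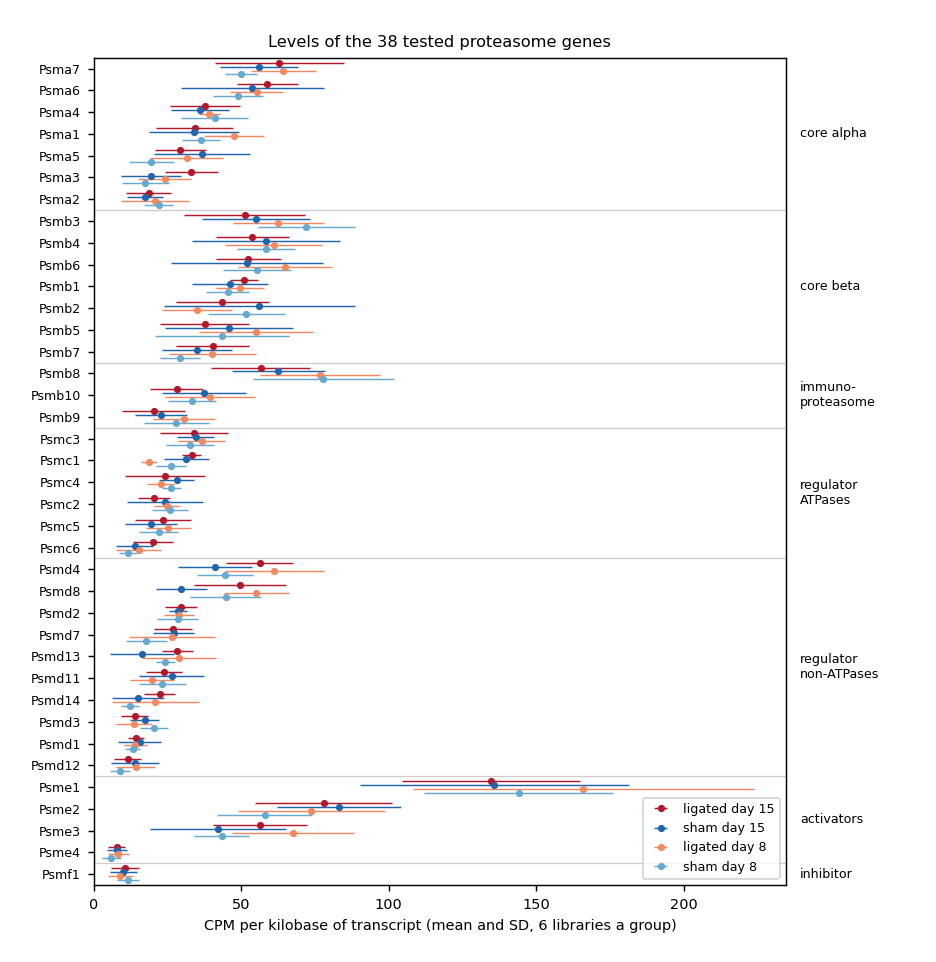
Level of each of the 38 tested proteasome genes in CPM per kilobase of transcript (horizontal axis, linear), as the mean and SD of 6 libraries in each of 4 groups, sorted within class. Psme1 stands furthest right at 145 on average over 24 libraries, and the 4 group means of most genes lie within each other's SD.

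After ligation no proteasome gene passed the test at either day taken alone, and the median of their fold changes lay within 0.12 log2 units of that of all genes. At day 15, 0 of 38 tested members were called by edgeR's quasi-likelihood test at an adjusted p under 0.05 (Benjamini-Hochberg over all 4112 genes), where 4.55% of all genes tested were called (3.48% higher and 1.07% lower). At day 8 the count was again 0 of 38, against 3.14% of all genes (2.77% higher and 0.365% lower). At an unadjusted p under 0.05 there were 3 members at day 15 (Psmd8, Psma3 and Psmd13) and 3 at day 8 (Psme3, Psmd14 and Psmd12), all higher after ligation, which is 7.89% of the members at each day against 18.1% and 14.3% of all genes. DESeq2 and limma-voom called 0 members at either day as well. The members' log2 fold changes ran from −0.42 to 0.72 at day 15, with a median of 0.01 beside −0.02 over all genes tested, and 19 of 38 were positive. At day 8 they ran from −0.51 to 0.75 with a median of 0.14 beside 0.02, and 26 of 38 were positive.

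The missing calls leave room for moderate changes in single genes. The 95% intervals reached a median of 0.57 log2 units to each side at day 15 and 0.53 at day 8. At day 15 the interval lay within 1 log2 unit of no change, that is, inside a doubling or halving, for 31 of 38 members. At day 8 this held for 29 of 38. Averaging the ligation effect over both days narrowed the median to 0.39 and put 36 of 38 intervals inside that range.

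**Figure D2:**
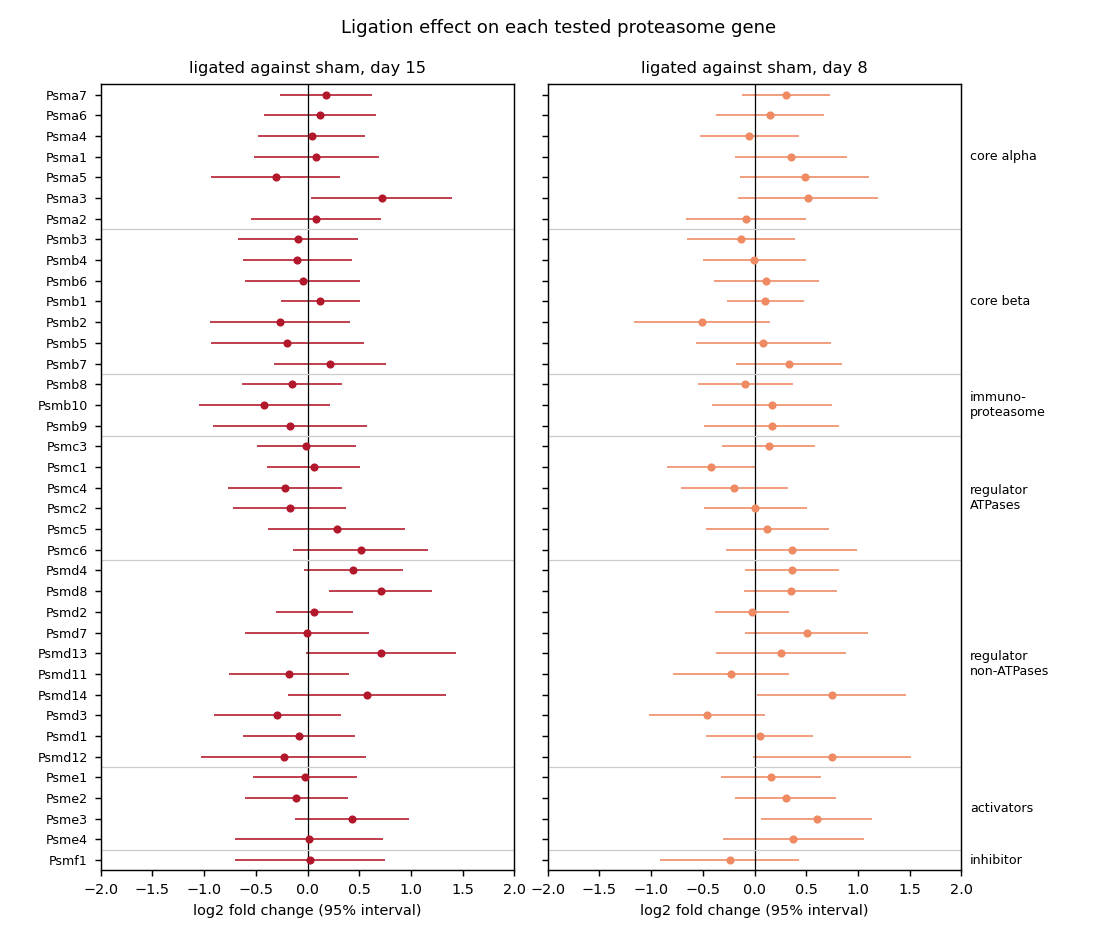
Log2 fold change of ligated against sham libraries for the 38 tested genes by class, at day 15 (left panel) and day 8 (right panel), with 95% intervals from the edgeR fit (6 libraries a group). The points lie between −0.42 and 0.72 at day 15 and between −0.51 and 0.75 at day 8, and most intervals cross 0.

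The direction of the members' median shift depended on how libraries were scaled. TMM factors averaged 0.938 in ligated and 1.08 in sham libraries at day 15, and 0.898 in ligated and 1.11 in sham libraries at day 8. With plain totals in place of TMM, the median of all genes moved by −0.20 log2 units at day 15 and by −0.28 at day 8. The members moved with it: their median stood 0.03 above that of all genes at day 15 and 0.12 above at day 8 with plain totals, and 0.02 and 0.12 above with TMM. Under plain totals 9 and 15 of 38 members were positive at day 15 and day 8. Only the distance to all genes is therefore read from the medians. At day 8 the summed CPM of all 50 genes differed by 0.29 log2 units between ligated and sham libraries numbered 1 to 3, and by 0.04 between those numbered 4 to 6.

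Summed over all 50 genes, the level was 2103 ± 207 CPM in ligated libraries and 2005 ± 208 in sham libraries at day 15 (SD, n = 6 each). At day 8 it was 2229 ± 251 CPM in ligated and 1982 ± 90.8 in sham libraries. The ranges overlapped at both days, 1752 to 2275 against 1601 to 2165 CPM at day 15 and 1908 to 2662 against 1834 to 2094 CPM at day 8. With plain totals the log2 difference between the group means turned to −0.14 at each day. No p-value is given for such sums.

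**Figure D3:**
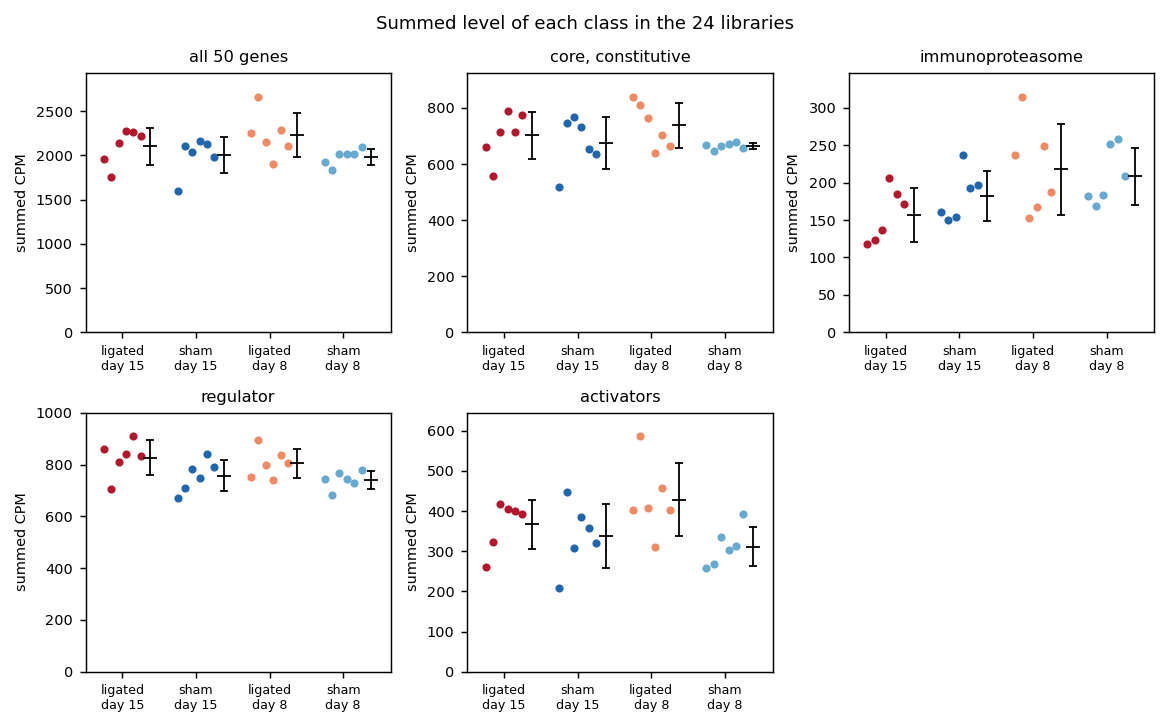
Summed CPM of all 50 genes and of 4 classes in each library (points) of the 4 groups, with the group mean and SD (black bars, n = 6); each vertical axis starts at 0. Ligated and sham libraries overlap in every class at both days; the activators at day 8 average 428 CPM in ligated and 312 CPM in sham libraries.

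No constitutive core gene was called after ligation. Of the 16 genes 14 were tested, and at day 15 as at day 8, 0 were called, where 4.55% and 3.14% of all genes tested were, so that few or no calls among 14 genes is near the background. The summed level of the core was 702 ± 85.0 CPM in ligated and 676 ± 92.9 CPM in sham libraries at day 15, and 737 ± 80.7 CPM in ligated and 665 ± 11.2 CPM in sham libraries at day 8. It made up 33.5% ± 1.98 of the proteasome counts (SD, n = 24), beside 37.8% ± 2.52 for the regulator, 17.2% ± 2.40 for the activators and 9.16% ± 1.84 for the immunoproteasome genes. The sham libraries of day 8 were the closest to each other, from 648 to 680 CPM.

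Psma7 and Psma2 had the most counts among the alpha subunits. Psma7 had a lowest, median and highest level of 45.4, 60.4 and 108 CPM in ligated libraries at day 15, against 38.5, 58.4 and 75.2 CPM in sham libraries. At day 8 it had 53.4, 66.8 and 84.7 CPM in ligated libraries, against 45.8, 51.1 and 60.5 CPM in sham libraries. The groups overlapped at both days, and the log2 fold changes were 0.18 (SE 0.22, adjusted p = 0.723) and 0.30 (SE 0.21, adjusted p = 0.567). Psma2 had 36.3, 43.7 and 92.9 CPM in ligated and 23.1, 52.2 and 78.2 CPM in sham libraries at day 15, and 35.9, 48.2 and 127 CPM in ligated and 45.8, 65.0 and 86.05 CPM in sham libraries at day 8. Its levels overlapped as well, and it shares its strand with the overlapping AW209491; it gave log2 fold changes of 0.08 (SE 0.31, adjusted p = 0.921) and −0.09 (SE 0.28, adjusted p = 0.943).

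Psma3 was the alpha subunit with the largest estimate averaged over both days. It had 29.2, 69.2 and 72.9 CPM in ligated libraries at day 15, against 6.18, 43.8 and 53.1 CPM in sham libraries, and 26.4, 41.6 and 64.6 CPM in ligated libraries at day 8, against 14.1, 30.9 and 57.4 CPM in sham libraries. Ligated and sham libraries overlapped at each day. Averaged over both days its log2 fold change was 0.61 (SE 0.23, adjusted p = 0.0915), which missed the threshold.

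Psmb1 and Psmb4, beta subunits without a cutting site, were the best counted of their ring. Psmb1 ran at 79.4, 90.6 and 98.7 CPM in ligated and 55.6, 78.6 and 110.0 CPM in sham libraries at day 15, and at 70.7, 83.0 and 108 CPM in ligated and 58.7, 80.9 and 96.6 CPM in sham libraries at day 8. The groups overlapped, and the log2 fold changes of 0.12 at day 15 and 0.10 at day 8 had intervals of −0.26 to 0.50 and −0.27 to 0.47, among the narrowest of the members. Psmb4 ran at 45.4, 66.8 and 79.4 CPM in ligated and 27.0, 73.9 and 111 CPM in sham libraries at day 15, and at 52.7, 68.2 and 103 CPM in ligated and 48.6, 70.9 and 81.4 CPM in sham libraries at day 8. Its groups overlapped too, with estimates of −0.10 and −0.00.

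Immunoproteasome transcripts were counted in every library of ligated and sham mice, and none of the 3 genes was called in any comparison. Psmb8 (β5i, the inducible chymotrypsin-like subunit; ENSMUSG00000024338, chr17:34197721-34201454, plus strand, GRCm38) led them. It had 49.7, 93.4 and 125 CPM in ligated libraries at day 15, against 72.4, 97.2 and 148 CPM in sham libraries. At day 8 it had 95.05, 116 and 188 CPM in ligated libraries, against 86.05, 119 and 176 CPM in sham libraries. Ligated and sham libraries overlapped at both days, with log2 fold changes of −0.15 (SE 0.24, adjusted p = 0.799) and −0.09 (SE 0.22, adjusted p = 0.906).

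Psmb9 and Psmb10, the inducible counterparts of the caspase-like Psmb6 and the trypsin-like Psmb7, were lower. Psmb9 had 9.72, 29.6 and 43.5 CPM in ligated and 12.4, 33.1 and 47.0 CPM in sham libraries at day 15, and 20.5, 40.0 and 60.5 CPM in ligated and 25.8, 32.4 and 66.9 CPM in sham libraries at day 8. Psmb10 had 14.4, 40.9 and 45.8 CPM in ligated and 13.3, 53.1 and 66.6 CPM in sham libraries at day 15, and 21.1, 54.8 and 71.8 CPM in ligated and 28.7, 43.8 and 58.7 CPM in sham libraries at day 8. Both genes overlapped between ligated and sham libraries at each day. Psmb10 gave −0.42 (SE 0.31, adjusted p = 0.514) at day 15 and 0.17 (SE 0.28, adjusted p = 0.855) at day 8, and Psmb9 gave −0.17 and 0.17. Psmb9 overlaps Tap1 on the other strand, and the sources used here do not say whether strand was used in counting, so reads of that pair are uncertain.

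Their constitutive counterparts were not called either. Psmb5, the chymotrypsin-like subunit that Psmb8 replaces, had 15.8, 25.9 and 44.1 CPM in ligated and 21.4, 27.1 and 61.8 CPM in sham libraries at day 15, and 31.9, 37.0 and 71.8 CPM in ligated and 0, 38.7 and 47.1 CPM in sham libraries at day 8. The 0 is sham mouse 1 of day 8, whose library of 101733 counts allows up to 28.7 CPM at 3 counts. Psmb6, the caspase-like subunit that Psmb9 replaces, had 28.9, 44.7 and 50.7 CPM in ligated and 24.7, 31.8 and 69.5 CPM in sham libraries at day 15, and 34.2, 53.1 and 68.6 CPM in ligated and 28.7, 47.8 and 52.8 CPM in sham libraries at day 8. In both genes the groups overlapped. Psmb7, the trypsin-like subunit that Psmb10 replaces, had 34.4, 43.8 and 69.6 CPM in ligated and 20.1, 39.5 and 55.6 CPM in sham libraries at day 15, and 31.7, 43.4 and 78.7 CPM in ligated and 19.1, 37.8 and 39.1 CPM in sham libraries at day 8. Psmb7 overlapped between groups and gave the largest estimates of the 3, 0.22 (SE 0.26, adjusted p = 0.727) and 0.33 (SE 0.25, adjusted p = 0.586).

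The share of immunoproteasome counts within the 3 pairs does not depend on the scaling of libraries. It was above 50% in each of the 24 libraries, from 52.1% to 79.2%, and 61.7% over all of them (1742 counts against 1081 of the constitutive genes, 95% exact binomial interval 59.9 to 63.5, counting error only). It averaged 56.9% ± 3.47 in ligated and 61.1% ± 7.36 in sham libraries at day 15, and 60.3% ± 4.99 in ligated and 65.6% ± 7.51 in sham libraries at day 8 (SD, n = 6 each). The differences of −4.21 and −5.29 percentage points were smaller than the pooled SDs of 5.75 and 6.38. Without sham mouse 6 of day 15 the first was −2.28, and without sham mouse 1 of day 8 the second was −2.58. Per transcript length the share was 48.3% ± 7.22 and above 50% in 7 of 24 libraries, so the excess over 50% held for counts and not for counts per kilobase. The 3 pairs differed: Psmb8 took 76.9% of the counts of its pair with Psmb5, Psmb10 took 52.1% beside Psmb7 and Psmb9 took 42.7% beside Psmb6, pooled over 24 libraries. Per length, Psmb8 kept 61.1% ± 12.2 of its pair, Psmb10 48.6% ± 12.4 and Psmb9 31.3% ± 11.6 (SD, n = 24).

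**Figure D4:**
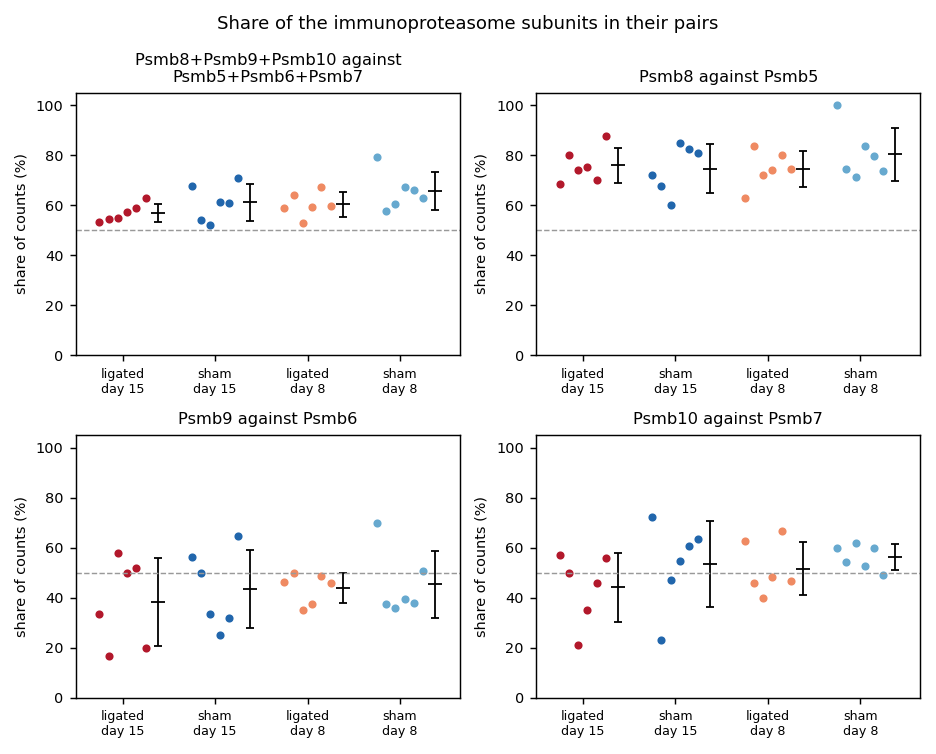
Share of counts, in percent, taken by the inducible subunits in all 3 pairs together and in each pair, in every library (points) with the group mean and SD (black bars, n = 6); the dashed line marks 50%. All 24 libraries lie above 50% in the first panel, and Psmb8 lies above 50% of its pair with Psmb5 in every library.

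The letters just upstream of the genes were searched for motifs of factors known to control them. RefSeq promoters of GRCm38.p6 matched 42 of the 50 genes by symbol (not Psma8, Psmb1, Psmb2, Psmb7, Psmc3, Psmd3, Psmd7 and Psmg2), and the 250 bases before the start were searched on both strands for 4 motifs. The antioxidant-like motif TGACNNNGC, a core of the element bound by Nrf factors that control proteasome genes, was in 5 of 42 members (11.9%) and in 11.5% of 27025 promoters. The interferon-stimulated-like motif, GAAA and GAAA with 2 bases of any kind between them, was in 3 of 42 (7.14%) against 3.46%, and none of them was Psmb8, Psmb9 or Psmb10. The motif TTCNNNGAA, the shape of the gamma-interferon-activated element, was in 2 of 42 (4.76%), Psmb8 and Psmg1, against 8.13%, and CCAAT was in 15 of 42 (35.7%) against 37.5%. A match is a description of letters and not a site. The windows of Psmb5 (chr14:54618023-54618245, minus strand) and Psmb6 (chr11:70525107-70525356, plus strand), shown because both hold the antioxidant-like motif, are given beside that of the inducible Psmb10 (chr8:105938445-105938642, minus strand), which holds none of the 4; capitals mark the motif, and windows were trimmed to lie before the start in both annotations.
Psmb5: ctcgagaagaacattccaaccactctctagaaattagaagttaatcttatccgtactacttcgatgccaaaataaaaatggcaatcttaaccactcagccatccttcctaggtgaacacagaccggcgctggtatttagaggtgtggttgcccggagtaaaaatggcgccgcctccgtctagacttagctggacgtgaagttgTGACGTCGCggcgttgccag
Psmb6: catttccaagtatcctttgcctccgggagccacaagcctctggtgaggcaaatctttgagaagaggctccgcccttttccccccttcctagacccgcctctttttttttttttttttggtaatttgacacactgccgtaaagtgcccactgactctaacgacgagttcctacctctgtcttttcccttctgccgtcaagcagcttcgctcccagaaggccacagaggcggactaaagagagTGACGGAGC
Psmb10: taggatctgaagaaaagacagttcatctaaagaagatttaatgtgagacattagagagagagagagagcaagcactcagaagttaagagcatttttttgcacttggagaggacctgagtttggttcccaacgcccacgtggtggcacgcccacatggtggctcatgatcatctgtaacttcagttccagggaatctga

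In the regulatory particle, 16 of 20 genes were tested, and the only member called after ligation in any comparison with sham was the lid subunit Psmd8. Averaged over both days, 1 of 38 members (2.63%) was called, against 10.6% of all genes tested (7.1% higher and 3.5% lower); 6 members (15.8%) had an unadjusted p under 0.05, all of them higher after ligation, against 24.2% of all genes. The summed regulator level was 827 ± 68.0 CPM in ligated and 757 ± 60.6 CPM in sham libraries at day 15, and 805 ± 56.5 CPM in ligated and 741 ± 33.7 CPM in sham libraries at day 8 (SD, n = 6 each). The ranges overlapped at both days.

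Psmd8 encodes a subunit of the lid, the part of the regulatory particle that surrounds the enzyme removing ubiquitin, and its yeast counterpart is needed for assembly of that particle (ENSMUSG00000030591, chr7:29174188-29180701, minus strand). It had a lowest, median and highest level of 51.8, 72.9 and 118 CPM in ligated libraries at day 15, against 30.9, 45.3 and 68.4 CPM in sham libraries. At day 8 it had 65.7, 85.0 and 106 CPM in ligated libraries, against 46.2, 72.7 and 95.6 CPM in sham libraries. Ligated libraries lay higher on average at both days, with means of 75.7 against 45.5 CPM at day 15 and 84.2 against 68.4 CPM at day 8. The larger difference at day 15 thus goes with a lower sham mean and not with a higher ligated mean. The groups overlapped at both days, and over both days together 0.462% of all genes tested had groups without overlap. Averaged over both days Psmd8 rose, by a log2 estimate of 0.53 (SE 0.16, adjusted p = 0.0356); singly the estimates were 0.71 (SE 0.24, adjusted p = 0.0896) at day 15 and 0.35 (SE 0.22, adjusted p = 0.496) at day 8. The estimate stayed positive in the alternatives tried, yet the call ended without the filter on low counts (adjusted p = 0.146), with DESeq2 (0.051), with plain totals (0.212, estimate 0.28), with only the day 8 libraries 1 to 3 (0.263) or 4 to 6 (0.0693), and when any of 11 libraries was left out. Those were ligated mice 1, 3 and 5 and sham mice 4 and 5 of day 8, and ligated mice 1, 3 and 4 and sham mice 3, 4 and 5 of day 15 (adjusted p from 0.0504 to 0.0769).

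Psmc1, an ATPase of the base ring (ENSMUSG00000021178, chr12:100110154-100123405, plus strand), moved with time in ligated mice and was the only member called there, against 4.35% of all genes tested (2.26% higher and 2.09% lower). It had 44.1, 53.7 and 57.7 CPM in ligated libraries at day 15, against 24.2, 30.2 and 34.7 CPM in ligated libraries at day 8. All 6 ligated libraries of day 15 lay above all 6 of day 8, as in either direction in 0.973% of all genes tested. The levels of ligated mice 1, 2 and 3 of day 8 rest on 4, 4 and 6 counts, so that separation is uncertain. Sham libraries had 37.1, 46.7 and 65.5 CPM at day 15, against 28.6, 45.1 and 49.0 CPM at day 8, and overlapped. In ligated mice Psmc1 rose at day 15 against day 8, by a log2 estimate of 0.77 (SE 0.21, adjusted p = 0.0243), where the sham estimate was 0.29 (SE 0.21, adjusted p = 0.593). The ligation effect at day 15 minus that at day 8 was 0.48 (SE 0.30, adjusted p = 0.911), so a change with time that differs by treatment was not shown. Against sham, ligated libraries gave 0.06 (SE 0.22, adjusted p = 0.951) at day 15 and −0.42 (SE 0.21, adjusted p = 0.377) at day 8, with overlap at each day. The time call ended without the filter (adjusted p = 0.291), with a minimum count of 5 (0.0531), with the replicate block (0.0616), with DESeq2 (0.0876), with day 8 libraries 1 to 3 alone (0.481) and without ligated mouse 4 or 5 of day 8 or ligated mouse 1, 2 or 5 of day 15 (0.0511 to 0.096).

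The windows before the starts of these 2 called genes follow, Psmd8 (chr7:29180702-29180923, minus strand) with none of the 4 motifs and Psmc1 (chr12:100109952-100110153, plus strand) with CCAAT in capitals.
Psmd8: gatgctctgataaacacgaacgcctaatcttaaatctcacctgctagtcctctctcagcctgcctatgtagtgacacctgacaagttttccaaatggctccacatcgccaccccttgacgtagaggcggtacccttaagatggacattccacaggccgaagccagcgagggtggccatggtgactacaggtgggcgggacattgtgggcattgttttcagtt
Psmc1: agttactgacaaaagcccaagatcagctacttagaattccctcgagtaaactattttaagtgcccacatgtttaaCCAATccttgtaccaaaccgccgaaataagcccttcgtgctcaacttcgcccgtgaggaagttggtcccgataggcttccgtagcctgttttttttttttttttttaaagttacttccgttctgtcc

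**Figure D5:**
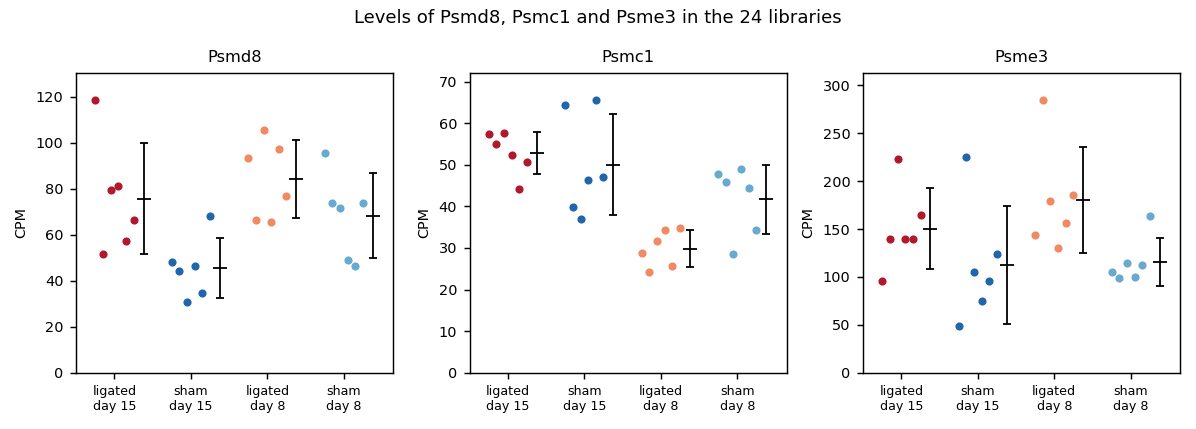
CPM of Psmd8, Psmc1 and Psme3 in each library (points) of the 4 groups with the mean and SD (black bars, n = 6); each vertical axis starts at 0. Ligated and sham libraries overlap in all 3 genes at both days, and the 6 ligated libraries of day 15 lie above the 6 of day 8 for Psmc1.

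Among the other ATPases none was called. Psmc3, the best counted, had 32.4, 50.9 and 79.2 CPM in ligated and 42.7, 55.7 and 69.3 CPM in sham libraries at day 15, and 36.3, 61.1 and 71.8 CPM in ligated and 38.2, 53.1 and 70.0 CPM in sham libraries at day 8. Its groups overlapped, with estimates of −0.01 and 0.14. The summed ATPases were 254 ± 31.1 CPM in ligated and 244 ± 24.6 CPM in sham libraries at day 15, and 232 ± 12.6 CPM in ligated and 232 ± 12.1 CPM in sham libraries at day 8, a difference far inside the SDs at day 8. Psmc3 overlaps Slc39a13 on the other strand.

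The summed non-ATPases were 524 ± 38.5 CPM in ligated and 466 ± 53.3 CPM in sham libraries at day 15, and 533 ± 55.4 CPM in ligated and 468 ± 26.7 CPM in sham libraries at day 8, and the ranges overlapped. For the whole regulator the log2 difference turned to −0.09 at day 15 and −0.19 at day 8 with plain totals. Psmd2, a large scaffold of the base, was the best counted and had 72.1, 80.1 and 109 CPM in ligated and 75.3, 82.9 and 97.4 CPM in sham libraries at day 15, and 64.6, 86.9 and 103 CPM in ligated and 47.8, 89.3 and 106 CPM in sham libraries at day 8. It overlapped at both days and had the narrowest intervals of the class, −0.31 to 0.44 and −0.38 to 0.34 around 0.06 and −0.02. Psmd14, the enzyme that removes ubiquitin, gave 0.66 (SE 0.26, adjusted p = 0.0953) averaged over both days. The ubiquitin receptor Psmd4 gave 0.40 (SE 0.16, adjusted p = 0.11) and the lid subunit Psmd13 0.48 (SE 0.23, adjusted p = 0.187); these 3 had an unadjusted p under 0.05 and missed the threshold. Psmd14 passed it with limma-voom (0.72, adjusted p = 0.0407) and without sham mouse 5 of day 15 (0.86, 0.0256), Psmd4 with the day 8 libraries 1 to 3 alone (0.72, 0.0252) and Psmd13 without sham mouse 4 of day 15 (0.71, 0.0417). Psmd13 overlaps Sirt3 on the other strand. The lid subunit Psmd12 gave 0.75 (SE 0.37, adjusted p = 0.345) at day 8 and −0.23 (SE 0.39, adjusted p = 0.82) at day 15.

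Of the activators, Psme3 gave the largest estimates of ligation against sham at each day, and none of the 4 tested was called. Psme3 encodes an activator found mainly in the nucleus (ENSMUSG00000078652, chr11:101316213-101323537, plus strand). It had 95.5, 139.7 and 224 CPM in ligated libraries at day 15, against 48.3, 101 and 226 CPM in sham libraries. At day 8 it had 130.1, 168 and 284 CPM in ligated libraries, against 98.5, 109 and 164 CPM in sham libraries. Ligated libraries were higher on average at both days, with overlap at each: sham mouse 2 of day 15 lay above every ligated library of that day, and sham mouse 6 of day 8 above 3 of the 6 ligated ones. The log2 fold changes were 0.43 (SE 0.27, adjusted p = 0.428) at day 15 and 0.60 (SE 0.26, adjusted p = 0.27) at day 8. Averaged over both days the estimate was 0.52 (SE 0.19, adjusted p = 0.0783). That average passed the threshold with the replicate block (0.54, adjusted p = 0.0255), with limma-voom (0.53, 0.0485), without sham mouse 2 of day 15 (0.68, 0.00737) and without sham mouse 6 of day 8 (0.58, 0.0467).

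Psme1 and Psme2 encode the interferon-inducible activator that often works with the immunoproteasome. Psme1 had 68.8, 96.2 and 125 CPM in ligated and 74.1, 85.1 and 162 CPM in sham libraries at day 15, and 58.9, 119 and 179 CPM in ligated and 80.8, 99.6 and 134 CPM in sham libraries at day 8. Psme2 had 42.1, 62.8 and 95.8 CPM in ligated and 57.5, 65.1 and 104 CPM in sham libraries at day 15, and 35.9, 64.4 and 89.8 CPM in ligated and 28.7, 50.3 and 68.7 CPM in sham libraries at day 8. The groups overlapped for both genes. Psme1 gave −0.03 (SE 0.24, adjusted p = 0.974) and 0.16 (SE 0.24, adjusted p = 0.823) at day 15 and day 8, and Psme2 gave −0.11 (SE 0.24, adjusted p = 0.861) and 0.30 (SE 0.24, adjusted p = 0.604). Psme1 overlaps Emc9 on the other strand, and Psme2b, a single-exon gene named as a copy of Psme2, with 51 counts in 15 libraries, could share reads with Psme2. The summed activators were 367 ± 62.1 CPM in ligated and 338 ± 80.3 CPM in sham libraries at day 15, and 428 ± 91.2 CPM in ligated and 312 ± 48.6 CPM in sham libraries at day 8. At day 8 the range was 311 to 587 CPM in ligated and 258 to 392 CPM in sham libraries, so the groups overlapped, and the log2 difference was 0.68 in libraries 1 to 3 and 0.21 in libraries 4 to 6. Between libraries of the same number, which deviated together at day 8, the ligated sum was the higher in 6 of 6 pairs with TMM scaling and in 3 of 6 with plain totals; for Psme3 alone it was 6 of 6 and 5 of 6. At day 15 the log2 difference of the activators was 0.14 with TMM and turned to −0.08 with plain totals. Psme4, a large activator that sits on the barrel alone, gave 0.02 (SE 0.35, adjusted p = 0.988) at day 15 and 0.37 (SE 0.33, adjusted p = 0.644) at day 8.

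The inhibitor Psmf1 was the only tested member outside core, regulator and activators. It had 8.71, 26.9 and 45.8 CPM in ligated and 12.4, 25.2 and 44.3 CPM in sham libraries at day 15, and 10.6, 23.6 and 42.4 CPM in ligated and 20.2, 28.7 and 47.8 CPM in sham libraries at day 8. The groups overlapped, with estimates of 0.02 and −0.24. Assembly chaperones were rare: Psmd5, Psmd9 and Psmd10, which help build the base, had 171, 130 and 94 counts over 24 libraries, and Psmg1 to Psmg4, which help build the core, had 32 to 75. Psmd5 had 6.48, 24.6 and 39.7 CPM in ligated and 0, 19.1 and 30.9 CPM in sham libraries at day 15, and 0, 17.5 and 42.2 CPM in ligated and 8.89, 19.6 and 38.2 CPM in sham libraries at day 8. Psmd9 had 3.82, 15.6 and 22.2 CPM in ligated and 8.05, 17.9 and 25.6 CPM in sham libraries at day 15, and 0, 13.6 and 26.4 CPM in ligated and 9.56, 12.0 and 17.8 CPM in sham libraries at day 8. Psmg4 had 0, 12.9 and 17.4 CPM in ligated and 0, 4.15 and 17.4 CPM in sham libraries at day 15, and 0, 5.67 and 8.39 CPM in ligated and 1.78, 10.5 and 17.6 CPM in sham libraries at day 8. The groups overlapped, and at these counts a difference was not tested in the fit reported. The lid subunit Psmd6 missed the filter with 197 counts. Psmc3ip, which matches the name rule, encodes a partner of meiotic recombination and is no subunit; it had 12 counts in 9 libraries, none of them in ligated libraries at day 8. Without the filter on low counts, when all 50 members were tested, Psmc3ip was the only member called over both days, lower after ligation (adjusted p = 0.0473), and Psmd8 was not.

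Between days 1 member was called. In ligated mice the median log2 fold change of day 15 against day 8 was −0.04, the same as over all genes tested to 2 decimals, and Psmc1 was the 1 call. In sham mice it was 0.00 beside 0.02, with overlap in all but 0.17% of all genes tested, with 0 of 38 called by edgeR and 0 of 4112 genes in all. An unadjusted p under 0.05 was found for 3 members, 7.89% against 10.7% of all genes. Psma5 and Psmd7 were the higher at day 15 and Psmd8 the lower, with a log2 estimate of −0.53. A ligation effect that differed between the days was called for 0 members and 0 genes, with 0 members against 5.69% of all genes at an unadjusted p under 0.05. DESeq2 and limma-voom called 0 members for the sham and difference comparisons. The median interval of that difference reached 0.77 log2 units to each side. The immunoproteasome genes were lower in ligated mice at day 15 than at day 8 by estimates that missed the threshold, −0.40 (SE 0.23, adjusted p = 0.374) for Psmb8, −0.50 (SE 0.34, adjusted p = 0.458) for Psmb9 and −0.44 (SE 0.30, adjusted p = 0.459) for Psmb10. Their summed level was 157 ± 35.7 CPM in ligated libraries at day 15 and 218 ± 60.7 CPM at day 8, against 182 ± 33.4 and 209 ± 37.9 CPM in sham libraries (SD, n = 6 each). Between libraries of the same number, the ligated sum was the higher in 0 of 6 pairs at day 15 and in 2 of 6 at day 8. These counts were the same with TMM and with plain totals. At day 15 only 1 of 6 numbers showed a correlation above 0.1, so the count over pairs of that day is no paired test. The ranges of the sum overlapped at day 15, from 118 to 206 CPM in ligated and from 150 to 237 CPM in sham libraries.

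Genes that work with the proteasome were counted from lists of known partners. Of 13 tested genes of ubiquitin and its conjugation, 5 rose after ligation averaged over both days and none fell, where 7.1% of all genes tested rose. The lists were chosen with earlier results of these data known, so the counts and medians here are descriptions and no test of enrichment. On the log2 scale the lists had medians over both days of 0.12 for ubiquitin and its conjugation, 0.33 for docking partners, 0.33 for transcription control, 0.37 for antigen processing and 0.31 for interferon response, beside 0.00 over all genes tested. Ubb, a gene of ubiquitin itself, rose on the log2 scale by 0.55 (SE 0.11, adjusted p = 0.00119) over both days and by 0.72 (SE 0.15, adjusted p = 0.00959) at day 8. The conjugating enzyme Ube2d3 rose by 0.60 (SE 0.14, adjusted p = 0.00579) and by 0.89 (SE 0.20, adjusted p = 0.00649) at day 15. Ube2l6, the conjugating enzyme of the interferon-induced ubiquitin-like protein ISG15, rose by 0.71 (SE 0.20, adjusted p = 0.0224) and by 1.15 (SE 0.28, adjusted p = 0.0241) at day 8. At the single days where these were called, all 6 ligated libraries lay above all 6 sham libraries; groups without overlap made up 3.19% of all genes tested at day 15 and 2.31% at day 8. Rps27a, a fusion of ubiquitin and a ribosomal protein, rose in ligated mice at day 15 against day 8 by 0.43 (SE 0.13, adjusted p = 0.0498). It was the only one of the 13 called there, where 2.26% of all genes tested were called higher. At an unadjusted p under 0.05 there were 7 of the 13, of which 2 were higher and the rest lower. The median of the 13 was −0.06 beside −0.04 over all genes tested.

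Of 6 tested genes that control transcription of the proteasome 0 were called by edgeR at either day or over both, with 1 at day 15, 1 at day 8 and 2 over both days at an unadjusted p under 0.05, a threshold that 18.1%, 14.3% and 24.2% of all genes passed. Of 7 tested partners of antigen processing, Calr rose by 0.60 (SE 0.16, adjusted p = 0.0159) and H2-D1 by 0.45 (SE 0.13, adjusted p = 0.0251) over both days, and B2m, the light chain of MHC class I, fell in ligated mice at day 15 against day 8, with a log2 estimate of −1.06 (SE 0.27, adjusted p = 0.0251). Of 14 tested interferon response genes, Oasl2 rose by 0.92 (SE 0.29, adjusted p = 0.0377) and Irf7 by 0.75 (SE 0.24, adjusted p = 0.043) over both days. The 3 immunoproteasome genes, themselves targets of interferon, had medians of −0.17 at day 15, 0.17 at day 8 and −0.12 over both days.

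Markers of other cells moved with ligation in the same libraries. Of 20 hepatocyte markers 16 were tested, and 16 rose at day 15 and 14 at day 8, where 3.48% and 2.77% of all genes tested rose. Their summed level ran from 3859 to 29219 CPM in ligated and from 40.2 to 179 CPM in sham libraries at day 15, and from 465 to 6812 CPM in ligated and from 40.9 to 143 CPM in sham libraries at day 8. Apoc3, Fgg, Mat1a, Cyp3a11 and Serpina3k were at 0 in sham libraries of day 15, and Apoh, Ambp and Fgb in those of day 8. A marker at or near 0 in sham libraries could pass the filter on low counts only through ligated libraries. Its direction was then fixed in advance, so the hepatocyte counts are a description and no test. Erythroid markers, 17 of 19 tested, rose in 9 cases at day 8 and in 0 at day 15; their sum ran from 90152 to 204541 CPM in ligated and from 58097 to 86041 CPM in sham libraries at day 8, and from 52307 to 113804 CPM in ligated and from 53555 to 145532 CPM in sham libraries at day 15. Of 15 platelet markers, all tested, 8 fell in ligated mice at day 15 against day 8, with sums of 1681 to 2792 CPM at day 15 and 1838 to 12172 CPM at day 8. In sham mice 0 of them were called by edgeR between the days, but all 15 had negative estimates with an unadjusted p under 0.05 and a median of −1.35, beside −1.73 in ligated mice. Of 8 tested neutrophil markers 3 rose at day 8 and 0 at day 15, where their median was −0.44. In sham mice 0 of the 8 were called between the days, but all 8 were higher at day 15 with an unadjusted p under 0.05 and a median of 2.10. Of 4 tested monocyte and macrophage markers 1 rose at day 15 and 2 at day 8. Among all genes tested, 4.55% were called at day 15, 3.14% at day 8, 10.6% over both days and 4.35% between days in ligated mice. All 3 tested B cell markers fell over both days, and 1 of 5 markers of other liver cells fell at day 15; 0 of 2 T and NK cell markers were called. The part of these shifts in the levels of Psmd8, Psmc1, Psme3 and the class sums was not tested.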

How the data were processed

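Extracellular vesicles were precipitated from plasma and libraries made with a stranded kit without poly(A) selection or ribosomal depletion, per the labels' protocols. The values are expected counts per gene that the authors deposited as whole numbers; STAR and RSEM are named, without versions, in the submitters' processing notes, which also name hg38 although the gene identifiers are those of mouse, and give no strand setting. The counts were used as deposited. Genes were kept by edgeR's filterByExpr (minimum count 10, minimum total 15), scaled by TMM and fitted in all 24 libraries with a mean per group, and 6 comparisons were tested with the quasi-likelihood F-test in edgeR 4.0.16 (R 4.3.3), with Benjamini-Hochberg adjustment over 4112 genes. SEs are Wald errors that never go under counting error; where the spread between libraries is under counting error, edgeR takes the larger p, so a p and an interval can differ. Alternatives were limma-voom (limma 3.58.1), DESeq2 1.42.0, other scalings, filters, sample sets, a block and leaving out each library; the fits with plain totals were added after seeing the data. The fit was tested on simulated data.

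The members and all gene lists were chosen with earlier results of these data known. Full values are given for members called in any comparison, for the catalytic subunits with their inducible counterparts, for Psme1, Psme2 and Psme3, and for the 2 members of each class with the most counts; other members named with values were chosen after their values were seen. Some results on partner genes are not reported here. Positions and lengths come from GENCODE M21 on GRCm38, where all 50 members were found. Totals of 101733 to 937963 counts limit the precision. The 95% intervals of fold changes include the spread between libraries; the binomial interval and the floor cover counting error only. Each library is 1 animal per the labels. Libraries of the same number within a day were compared for pairing: at day 8 their deviations from the group means correlated at 0.165 to 0.327 in 6 of 6 numbers, above the 0.1 taken as pairing, and at day 15 at −0.031 to 0.113 with 1 of 6 above it. The numbers come from the sample titles, which do not say what they share. At day 8 the lower numbers were also the shallower libraries in both treatments, so shared depth and pairing cannot be told apart. The fit reported has no block of numbers.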

Additional observations from a re-analysis of the deposited data

Results flagged for a closer look

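Among 115 groups of 6 libraries examined, 15 held a library whose gap to its nearest neighbour exceeded the 95% limit of Dixon's test. That limit is passed by chance in about 1 in 20 groups only where values follow a normal distribution. Levels from a few counts, with zeros and unequal depths, do not, so the 15 flags are a description and no measured excess. All values are levels in CPM of single libraries. Psmb8 reached 187.6 CPM in ligated mouse 2 of day 8, where the others lay at 95.05 to 129.3. In the same library Psme3 reached 284.4 CPM beside 130.1 to 185.7 in the others, and Psmb7 reached 78.65 CPM beside 31.68 to 49.12; these 3 values rest on 31, 47 and 13 counts.

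Sham mouse 1 of day 8, the library with the fewest counts, had 66.93 CPM of Psmb9 from 7 counts, beside 25.75 to 39.43 in the others, and 0 CPM of Psmb5, beside 31.67 to 47.06. Ligated mouse 1 of day 8 had 71.76 CPM of Psmb5 from 10 counts, beside 31.93 to 37.14. Ligated mouse 3 of day 8 had 126.7 CPM of Psma2, beside 35.88 to 61.1. Psme3 stood at 164.1 CPM in sham mouse 6 of day 8, beside 98.54 to 114.4, a value from 129 counts.

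At day 15, Psmb10 was low in ligated mouse 3 (14.43 CPM, 4 counts, others 35.63 to 45.84) and in sham mouse 2 (13.28 CPM, 3 counts, others 49.41 to 66.58). Psma7 was high in ligated mouse 6 at 107.7 CPM, beside 45.35 to 67.44. Sham mouse 4 was high in Psme1 (162.1 CPM, others 74.12 to 88.5) and in Psmg4 (17.37 CPM from 6 counts, others 0 to 4.425). Psmc3ip had its single count of the group in ligated mouse 3 (3.607 CPM), a flag that follows from the others being at 0. The sum over all 50 genes was lowest in sham mouse 1, at 1601 CPM beside 1987 to 2165 in the others.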

How the results depend on the processing

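Results of the 18 tested members described in full, 3701 in all, were recomputed under the alternatives. Of these, 3670 kept their side of the threshold with a called direction unchanged. A call was lost in 26, gained in 5 and turned round in 0. Most, 3627, were uncalled in both fits and say little on the calls, and 233 of them changed sign. The 26 losses all fell on Psmd8 over both days and on Psmc1 between days in ligated mice. With each library left out in turn, Psmd8 kept that call in 13 of 24 refits and Psmc1 in 19 of 24. The count of members called over both days, 1 in the fit reported, was 2 with the replicate block, 3 with limma-voom, 0 with DESeq2 and 0 with day 8 libraries 4 to 6, and 0 to 2 when each library was left out. In ligated mice at day 15 against day 8 it was 0 without the filter, with a minimum count of 5, with the replicate block, with DESeq2 and with day 8 libraries 1 to 3, and 0 to 1 when each library was left out. At day 15 it was 0 to 1, with Psmd8 called (log2 fold change 0.85, adjusted p = 0.0494) without sham mouse 6. Over both days other members were called instead or as well: Psmd3, lower after ligation, with plain totals (−0.61, adjusted p = 0.0422), Psmc3ip, lower, without the filter (0.0473), Psmd4 with day 8 libraries 1 to 3, Psmd14 with limma-voom and without sham mouse 5 of day 15, and Psmd13 without sham mouse 4 of day 15. The block of replicate numbers within a day changed 2 calls among the members, adding Psme3 and removing Psmc1. Causes were not tested. Summed levels moved with scaling: with plain totals and with totals lacking Lars2 and hemoglobin genes, the log2 difference of all members was −0.14 and −0.22 at day 15 and −0.14 and −0.14 at day 8, that of the core −0.16 and −0.23 at day 15 and −0.16 and −0.17 at day 8, that of the regulator −0.0867 and −0.16 at day 15 and −0.19 and −0.19 at day 8, that of the activators −0.0776 and −0.15 at day 15 and 0.14 and 0.14 at day 8, and that of the immunoproteasome genes −0.44 and −0.52 at day 15 and −0.27 and −0.27 at day 8, beside −0.23 and 0.0377 with TMM. In day 8 libraries 1 to 3 and 4 to 6 it was 0.29 and 0.0384 for all members, 0.29 and −0.00235 for the core, 0.68 and 0.21 for the activators, 0.15 and 0.0822 for the regulator and 0.34 and −0.27 for the immunoproteasome genes. At day 15 the core difference of 0.0569 turned to −0.0169, and that of all members fell to 0.00695 beside 0.0704, without sham mouse 1. Depth limits single genes most: the members held a median of 573.5 counts per library in all.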
